A study of Mus musculus with 88 samples.

Results

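The genes that write, erase and read N6-methyladenosine (m6A) were examined as a group of 10 genes, namely Mettl3, Mettl14, Wtap, Fto, Alkbh5, Ythdc1, Ythdf2, Ythdf3, Igf2bp2 and Igf2bp3. Each gene was taken as the one feature of the oocyte count table that carried its name in the study's supplementary tables or, where none did, that overlapped the annotated gene best on the same strand. All 10 were found among 38540 features. The data were single-cell RNA-seq profiles of germinal vesicle (GV) oocytes, the fully grown oocytes arrested in the first meiotic prophase, from C57BL/6Babr mice. One group came from young females of 12 weeks and the other, labelled old and called aged here, from females of 44 to 54 weeks. No other treatment or genotype was named, and the labels did not say which mouse gave which oocyte. Each age group was therefore taken as 1 sample, and no test between groups was made. RNA was caught by its poly(A) tail with the Smart-seq2 oligo-dT method, so transcript abundance and tail length cannot be told apart.

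The study assigned each oocyte to one of the chromatin configurations of the GV stage by comparison with published transcriptomes. In the non-surrounded nucleolus (NSN) configuration the oocyte still transcribes, whereas in the surrounded nucleolus (SN) configuration transcription has ceased. The configuration was thus predicted from transcript levels of the same oocytes and was not seen under a microscope, so differences between SN and NSN oocytes are descriptions. Of 88 oocytes, 87 had a configuration. Of the 42 young oocytes, 30 were NSN and 12 SN, and of the 45 aged oocytes, 37 were NSN and 8 SN. Total counts ranged from 976456 to 8231046, and young oocytes, with a median of 3002989, were sequenced deeper than aged ones, with a median of 2379884. The total of aged oocyte 15 differed from that in the study's supplementary list, and the values without it are among the settings tried. Oocyte names formed 6 runs of consecutive numbers, 3 of each age, whose meaning the labels did not give, and no run held both ages.

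m6A is deposited on RNA by a nuclear complex in which METTL3 is the catalytic subunit, METTL14 its RNA-binding partner and WTAP the adaptor. FTO and ALKBH5 remove the mark. YTH-domain proteins bind it, YTHDC1 in the nucleus, where it acts in splicing and export, and YTHDF2 and YTHDF3 in the cytoplasm, where YTHDF2 promotes decay of bound transcripts. The IGF2BP proteins are RNA-binding proteins that stabilise bound transcripts. In the mouse, YTHDF2 and YTHDC1 are required in the oocyte for female fertility.

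The cells carried the transcripts of their labelled type. A list of 8 oocyte markers, among them Gdf9 and Zp3, summed to between 11862 and 30120 counts per 1000000 counts of a library (CPM) in each oocyte. The granulosa list, of which 8 of 9 genes had a feature, summed to between 5.67 and 82.6 CPM. The theca and stroma list summed to at most 3.45 CPM with Col1a1 at 0, and the blood and immune list to at most 6.80 CPM with Hba-a1 and Hbb-bs at 0.

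Because the main difference between configurations was in the reader Ythdf2, and Fto was the other member higher in young SN oocytes, their upstream sequences are shown. RefSeq promoter windows on GRCm38.p6 were given for 8 of the 10 genes. The oocyte feature of Ythdf2 began 95 bases, and that of Fto 15 bases, upstream of the RefSeq start, and only the bases before both starts are printed, 5′ to 3′ on the gene's strand. Capitals mark the GC box (GGGCGG on either strand). The first is chr4:132212352-132212506 on the minus strand and the second chr8:91313275-91313509 on the plus strand.
Ythdf2: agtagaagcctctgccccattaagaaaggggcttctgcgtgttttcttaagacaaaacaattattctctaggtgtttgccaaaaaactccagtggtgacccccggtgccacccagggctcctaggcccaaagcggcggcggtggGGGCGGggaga
Fto: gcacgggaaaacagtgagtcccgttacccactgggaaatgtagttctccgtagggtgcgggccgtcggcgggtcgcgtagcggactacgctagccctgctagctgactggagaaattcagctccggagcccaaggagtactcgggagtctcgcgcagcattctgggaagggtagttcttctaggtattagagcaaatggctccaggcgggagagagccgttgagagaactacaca
The Ythdf2 stretch of 155 bases had 55.5% G and C and held 1 GC box, which was found in 17.4% of all 32851 RefSeq windows cut to the same stretch. The Fto stretch of 235 bases had 57.9% G and C and held none, whereas 30.6% of all windows did. Neither stretch held a CCAAT box (CCAAT), an E-box (CACGTG) or a TATA box (TATAAA) on either strand. A match is a description of the letters only. The features of Mettl3, Alkbh5, Ythdc1, Igf2bp2 and Igf2bp3 began between 260 and 735 bases upstream of the RefSeq start, so that their promoter windows lay inside the oocyte feature and are not printed.

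All 10 genes had counts in all 87 oocytes, so none was lost to the filter on low features. The fewest counts in one oocyte were 4, for Fto. Per kb of merged annotated exons and over all oocytes, Alkbh5 stood highest at 142 CPM per kb. It was followed by Wtap at 84.7, Ythdf3 at 62.2, Igf2bp2 at 56.5, Ythdf2 at 31.3 and Igf2bp3 at 21.2 CPM per kb. Mettl3 at 9.58, Mettl14 at 6.48 and Ythdc1 at 4.89 CPM per kb formed a lower tier, and Fto was lowest at 0.747 CPM per kb. The eraser Alkbh5 thus stood far above the other eraser Fto, and the adaptor Wtap far above both subunits of the catalytic core. The middle 80% of oocytes did not overlap between Alkbh5 and Wtap, between Igf2bp3 and Mettl3, or between Ythdc1 and Fto. The other neighbours in this order overlapped. With the longest annotated coding transcript as the length in place of the merged exons, Wtap stood first at 166 and Alkbh5 next at 148 CPM per kb, Igf2bp2 passed Ythdf3, and Igf2bp3 and Ythdc1 each moved up 1 place. Fto was last on either length.

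**Figure D1:**
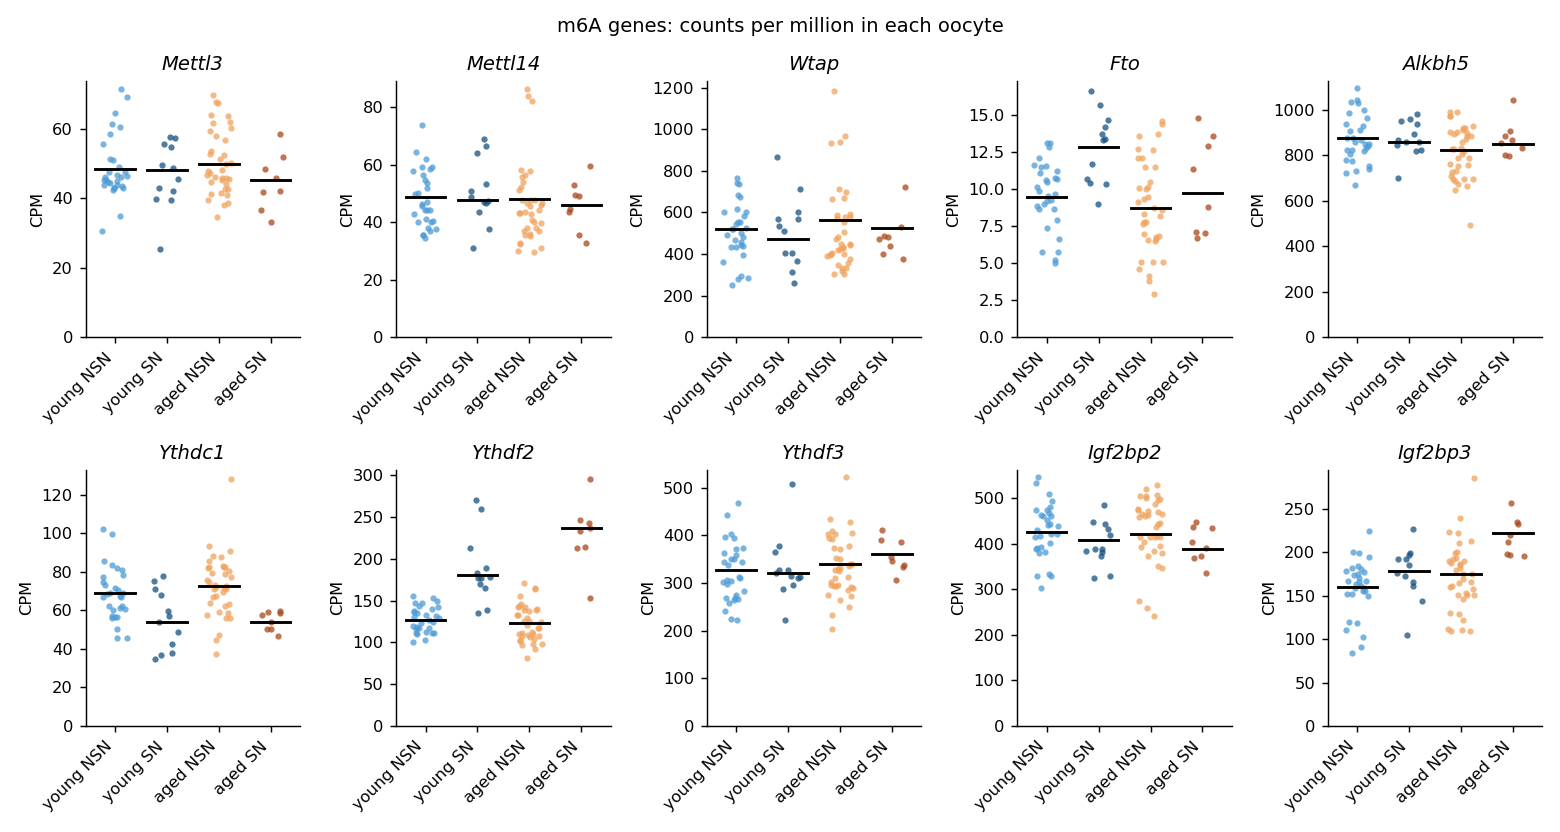
Level of each m6A gene (CPM, linear axis from 0) in the 87 oocytes, 1 point per oocyte, in young NSN, young SN, aged NSN and aged SN oocytes, with the pooled CPM of each group as a black line. Ythdf2 sits higher and Ythdc1 lower in SN than in NSN oocytes of both ages, while the writers overlap widely in all 4 groups.

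The next comparison asked whether the m6A genes differed between young and aged oocytes. Levels were compared as the CPM of counts summed over a group, with log2 ratios of aged over young and 95% intervals that cover counting error only. A log2 ratio of 0.32 in either direction was the limit of a call. Over all oocytes 0 of 10 genes passed it, beside 3.51% of the 11361 features tested, and among NSN oocytes alone 0 of 10 did, beside 4.61% of features. The median log2 ratio of the 10 genes was 0.02 in NSN oocytes, and that of all features was -0.01.

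The subunits of the catalytic core differed little between the ages. Mettl3 had a pooled level of 48.4 CPM in young NSN oocytes, where single oocytes ran from 30.5 through a median of 46.2 to 71.4 CPM. In aged NSN oocytes it was 49.8 CPM, with oocytes from 34.6 through 47.7 to 69.6 CPM, a log2 ratio of 0.04 (-0.02 to 0.10). Both ranges overlapped almost wholly. Mettl14 stood at 48.6 CPM in young NSN oocytes (lowest 34.6, median 46.0, highest 73.7) and at 48.2 CPM in aged NSN oocytes (29.5, 43.7 and 86.2), a log2 ratio of -0.01 (-0.07 to 0.05). The aged oocytes reached both lower and higher than the young ones. Part of each gene is overlapped by a gene on the other strand, Tox4 over 14.6% of the Mettl3 feature and Sec24d over 4.67% of the Mettl14 feature, and whether counting used the strand is not stated in the sources used here.

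Wtap, the adaptor, was the most unsteady member. It stood at 518 CPM in young NSN oocytes (lowest 251, median 509, highest 765) and at 565 CPM in aged NSN oocytes (304, 447 and 1185). The log2 ratio of the pooled levels was 0.12 (0.11 to 0.14), but the median oocyte was lower in the aged group and the median-based ratio was -0.19. In the run of aged oocytes 41 to 48 the 12 NSN oocytes pooled to 778 CPM, and those of the other aged runs to 390 and 464 CPM. Without that run the ratio was -0.28, and it was -0.075 with oocytes without a suffix. It was above 0 in 11 of 14 other settings, and with suffix A oocytes alone it was 0.40 and passed the limit. A processed pseudogene, Gm14292, was 99.3% identical to Wtap over 456 bases, and reads from that stretch could be assigned to either.

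Neither eraser passed the limit between aged and young NSN oocytes. Both pooled levels were slightly lower in aged oocytes, but the counting interval of Fto included 0. Of all features, 27.5% had a lower ratio than Alkbh5 and 21.4% a lower ratio than Fto. Alkbh5 stood at 873 CPM in young (lowest 668, median 853, highest 1095) and 822 CPM in aged NSN oocytes (494, 825 and 991), a log2 ratio of -0.09 (-0.10 to -0.07). Its single oocytes overlapped over most of their range. Fto, the other demethylase, stood at 9.47 CPM in young (5.01, 9.75 and 13.1) and 8.73 CPM in aged NSN oocytes (2.91, 8.54 and 14.6), a log2 ratio of -0.12 (-0.25 to 0.02). Of 37 aged NSN oocytes, 4 were above the highest and 4 below the lowest young one.

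Among the readers, Igf2bp3 was the one furthest above 0, at 160 CPM in young NSN (lowest 83.8, median 164, highest 224) and 174 CPM in aged NSN oocytes (109, 175 and 285), a log2 ratio of 0.12 (0.09 to 0.15). It was above 0 under all 14 other settings of that comparison, at 0.004 to 0.21, and 22 of 37 aged oocytes were above the young median. Ythdc1 had a log2 ratio of 0.07, Ythdf3 of 0.05, Igf2bp2 of -0.01 and Ythdf2 of -0.04 in NSN oocytes. For each of these readers the single oocytes of both ages overlapped. Over all oocytes of both configurations the ratios of the 10 genes ran from -0.23 for Fto to 0.14 for Igf2bp3.

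Among SN oocytes, where 8 aged were set against 12 young, 2 of 10 genes passed the limit, beside 14% of all features in either direction. Ythdf2 was the 1 gene higher in aged SN oocytes, beside 7.25% of features. Its pooled level was 180 CPM in young SN oocytes (lowest 135, median 178, highest 271) and 237 CPM in aged SN oocytes (153, 235 and 296), a log2 ratio of 0.40 (0.34 to 0.45). The ranges overlapped, with 7 of 8 aged oocytes above the young median and 1 above the highest young oocyte. The ratio was above 0 under all 14 other settings, from 0.21 to 0.52, but it was under the limit in 5 of them. These were size factors (0.29), the mean of single oocytes (0.29), oocytes without a suffix in their name (0.21), and the data without young oocytes 17 to 24 (0.31) or without aged oocytes 41 to 48 (0.31).

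Fto was the 1 gene lower in aged SN oocytes, beside 6.72% of features. It stood at 12.8 CPM in young SN (lowest 8.95, median 13.3, highest 16.6) and 9.69 CPM in aged SN oocytes (6.69, 10.0 and 14.8), a log2 ratio of -0.41 (-0.65 to -0.16). Of 8 aged oocytes, 4 were below the lowest young one. The pooled aged level rests on 193 counts. The ratio was inside the limit in 4 of the 14 other settings, namely -0.31 with size factors, -0.32 with the mean of single oocytes, -0.24 with suffix A oocytes alone and -0.14 without aged oocytes 41 to 48. Igf2bp3 lay just inside the limit at 0.32, with 178 CPM in young and 222 CPM in aged SN oocytes, and 8 of 8 aged oocytes were above the young median.

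Between the configurations more members passed the limit, and Ythdf2 lay furthest from 0 at both ages. In young oocytes 3 of 10 genes passed the limit between SN and NSN oocytes, beside 13.5% of all features. In aged oocytes 3 of 10 did, beside 33% of features, so that the count in aged oocytes was near the background. These comparisons share their groups with those of the ages.

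Ythdf2, which directs bound transcripts to decay, was higher in SN oocytes of both ages. In young oocytes its pooled level was 127 CPM in NSN (lowest 100.1, median 128, highest 156) and 180 CPM in SN oocytes, a log2 ratio of 0.50 (0.46 to 0.55), and 10 of 12 SN oocytes were above the highest NSN oocyte. In aged oocytes it was 123 CPM in NSN (81.7, 121 and 171) and 237 CPM in SN oocytes, a log2 ratio of 0.94 (0.89 to 0.99), and 7 of 8 SN oocytes were above the highest NSN oocyte. The single oocytes of both configurations still overlapped at either age. Within each of the 6 runs of oocyte numbers Ythdf2 was higher in SN than in NSN oocytes, by a log2 ratio of 0.18 to 1.07. The lowest of these came from a run with 1 SN oocyte. Ratios under the other settings ran from 0.37 to 0.69 in young and from 0.87 to 0.98 in aged oocytes. Processed pseudogenes of Ythdf2, Gm6823 and Gm8401, were 95.2% and 96.3% identical to it over 1840 and 1740 bases, and neither had a feature of its own in the table.

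Fto was the other gene higher in young SN oocytes, which made 2 of 10 genes higher beside 9.76% of all features. It stood at 9.47 CPM in young NSN and 12.8 CPM in young SN oocytes, a log2 ratio of 0.44 (0.28 to 0.60). Of 12 SN oocytes, 7 were above the highest and 11 above the median NSN oocyte. In aged oocytes the ratio was 0.15 (-0.08 to 0.38), which did not pass the limit. Within runs it was above 0 in 6 of 6, from 0.01 to 0.54. When all oocytes were thinned to 900000 counts, the young ratio was 0.30, inside the limit.

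Ythdc1, the nuclear reader, was lower in SN oocytes and was the 1 gene of 10 lower at either age, beside 3.78% of all features in young and 14.1% in aged oocytes. In young oocytes it stood at 69.1 CPM in NSN (lowest 45.5, median 67.9, highest 102) and 53.7 CPM in SN (34.7, 55.5 and 77.9), a log2 ratio of -0.36 (-0.43 to -0.29). In aged oocytes it stood at 72.4 CPM in NSN (37.4, 72.3 and 128) and 53.9 CPM in SN (46.6, 55.8 and 59.6), a log2 ratio of -0.43 (-0.52 to -0.33). The ranges overlapped, but 0 of 8 aged SN oocytes were above the aged NSN median. Within runs Ythdc1 was lower in SN oocytes in 5 of 6, the exception being the young run with 1 SN oocyte. The young value was inside the limit in 6 of 10 other settings. It was -0.09 without the run 17 to 24, -0.19 with suffix A oocytes alone, -0.28 after thinning, -0.29 with the median and -0.31 with the mean of single oocytes, and -0.32 with size factors. The aged value passed the limit in all 11 and ran from -0.50 to -0.36 over the other settings.

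Igf2bp3 was the other gene higher in aged SN oocytes, which made 2 of 10 genes higher beside 18.9% of all features. It stood at 174 CPM in aged NSN and 222 CPM in aged SN oocytes (lowest 196, median 216, highest 257), a log2 ratio of 0.35 (0.30 to 0.40). Of 8 SN oocytes, 8 were above the NSN median. The ratio was inside the limit in 4 of 11 other settings, at 0.28 under TMM scaling, 0.29 without aged oocytes 9 to 16, 0.30 with the median of single oocytes and 0.32 with oocytes without a suffix. In young oocytes it was 0.15 (0.11 to 0.20). The remaining genes, Mettl3, Mettl14, Wtap, Alkbh5, Ythdf3 and Igf2bp2, had log2 ratios of SN over NSN between -0.14 and 0.08 at both ages.

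**Figure D2:**
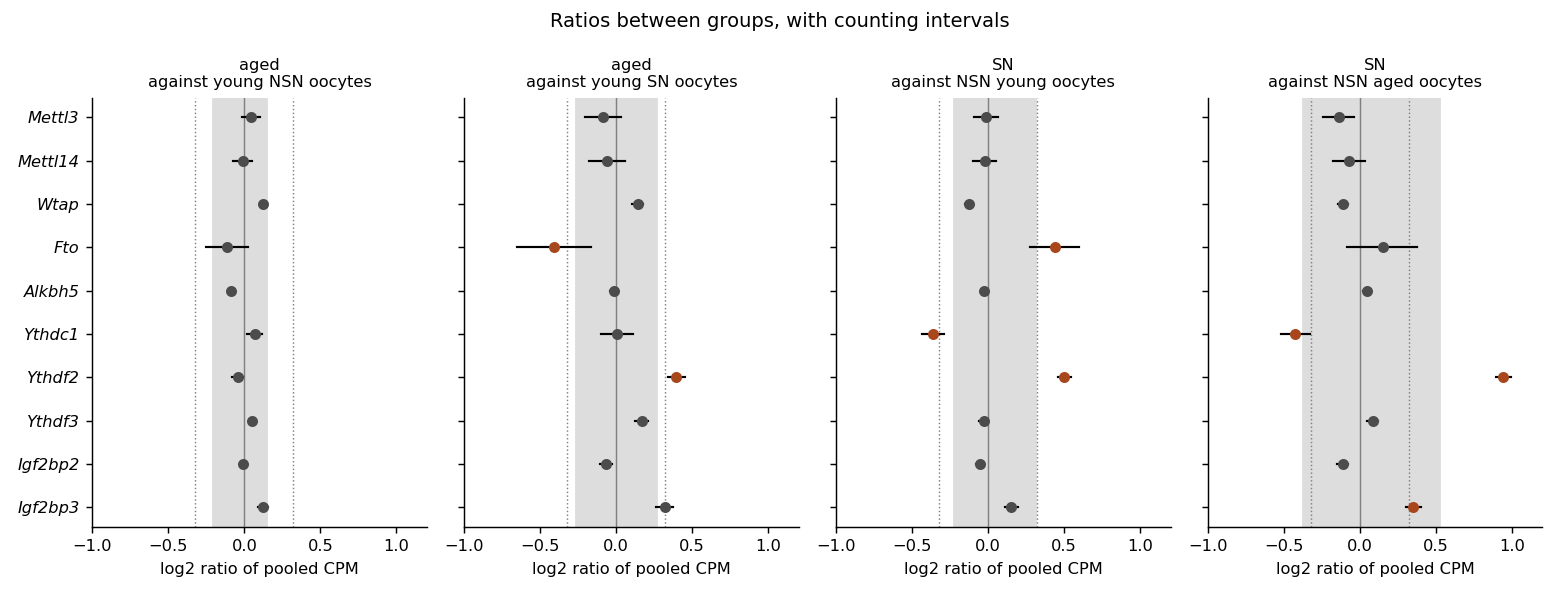
Log2 ratio of pooled CPM (x axis) of each m6A gene in 4 comparisons, with bars for 95% counting intervals, the grey band for the middle 80% of all features and dotted lines for the limit of 0.32. Genes past that limit are coloured, and Ythdf2 lies at 0.50 in young and 0.94 in aged oocytes between SN and NSN.

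**Figure D3:**
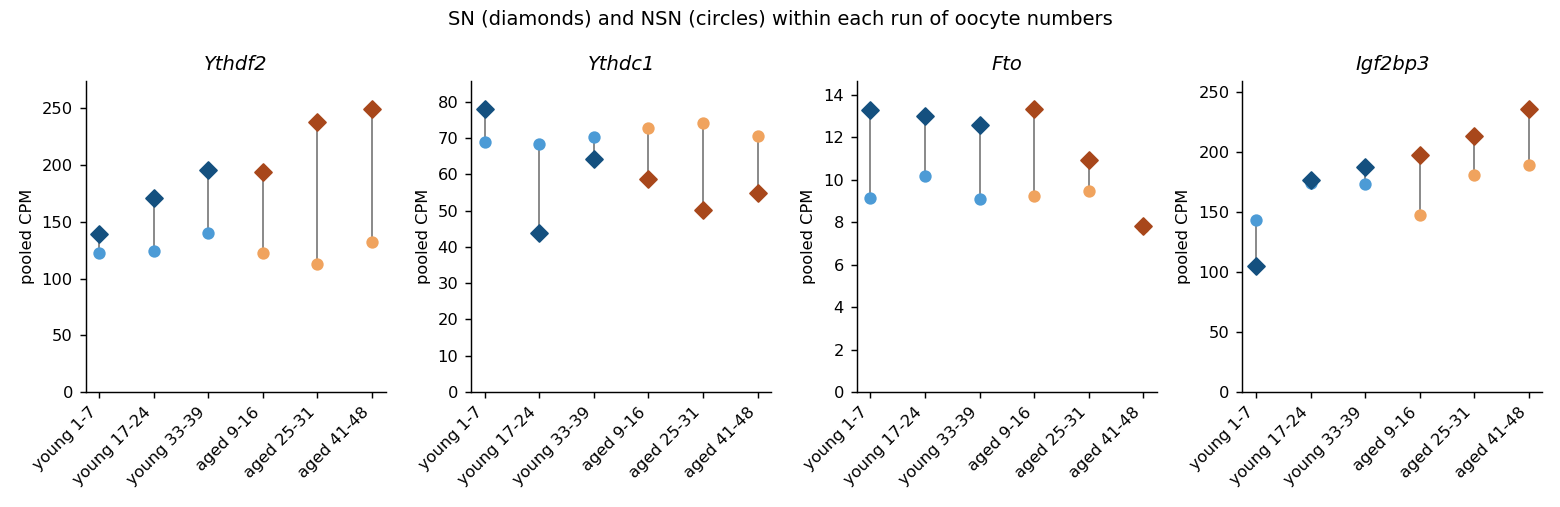
Pooled CPM (linear axis from 0) of SN oocytes (diamonds) and NSN oocytes (circles) within each of the 6 runs of oocyte numbers for Ythdf2, Ythdc1, Fto and Igf2bp3. Ythdf2 and Fto are higher in SN oocytes in 6 of 6 runs, and the Fto values of aged oocytes 41 to 48 nearly coincide.

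Summed over single oocytes, marker lists differed between the configurations as well. The summed oocyte markers had a median of 23181 CPM in young NSN, 26267 CPM in young SN, 22409 CPM in aged NSN and 28704 CPM in aged SN oocytes. The summed granulosa markers had medians of 15.7, 17.8, 13.3 and 23.5 CPM in the same order, but pooled over oocytes the granulosa sum was 21.1 CPM in young NSN and 20.3 CPM in young SN oocytes. Single markers differed in direction. Of 8 oocyte markers 6 were higher in SN oocytes at either age, while Mos and Oosp1 were lower, with Oosp1 at log2 ratios of -0.38 in young and -0.76 in aged oocytes. Of 8 granulosa markers 3 were higher in young and 4 in aged SN oocytes. Among them Inha had log2 ratios of -0.52 and -0.08, and Kitl had 0.24 and 0.80. Their part in the differences between SN and NSN oocytes was not tested.

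Other genes of the pathway were described by lists. Of 5 further subunits of the writer complex 4 had a feature, and of 8 further methyltransferases and methyl donor genes all 8 did. Of 8 further readers 6 were tested and of 9 partners of the readers 7. In aged against young NSN oocytes 1 of these 25 tested genes passed the limit, near the 4.61% of all features. It was Upf1, a helicase of nonsense-mediated decay, which stood at 150 CPM in young and 117 CPM in aged NSN oocytes, a log2 ratio of -0.36 (-0.39 to -0.32). The feature taken for Upf1 ran well beyond the annotated gene, with a Jaccard index of span overlap of 0.51. It was overlapped by 1 feature on the other strand. Upf1 was also lower in SN than in NSN oocytes, with log2 ratios of -0.39 in young and -0.38 in aged oocytes. Mettl5, a ribosomal RNA methyltransferase, had the highest ratio of the tested genes of the lists in NSN oocytes, 0.31, with a level of 62.2 CPM when young and 77.3 CPM when aged. Between SN and NSN oocytes 1 of the 25 was past the limit upwards and 1 downwards in young oocytes, where 9.76% and 3.78% of all features were. In aged oocytes these were 5 and 1, beside 18.9% and 14.1% of features, and in aged against young SN oocytes 3 and 1, beside 7.25% and 6.72%. In NSN oocytes of both ages the writer subunits ran from -0.19 for Virma to 0.09 for Cbll1. The further methyltransferases and donor genes had Ahcy lowest at -0.14, and the further readers ran from -0.22 for Prrc2a to 0.07 for Hnrnpa2b1. Among the tested partners Rida stood highest at 0.07 and Upf1 lowest.

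Ythdf1, the third cytoplasmic YTH reader, was past the limit between SN and NSN oocytes in the same direction as Ythdf2. It stood at 13.4 CPM in young NSN and 19.6 CPM in young SN oocytes, a log2 ratio of 0.54 (0.41 to 0.68). In aged oocytes it stood at 12.3 CPM in NSN and 20.9 CPM in SN, a log2 ratio of 0.76 (0.59 to 0.92). Ythdf3, the remaining member of that trio, had ratios of -0.03 and 0.08. Fmr1, an RNA-binding protein described as an m6A reader, had the highest ratio of SN over NSN among the tested genes of the lists in aged oocytes at 0.96, with 10.7 CPM in NSN and 20.8 CPM in SN, and a ratio of 0.16 in young oocytes.

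The spread over oocytes was measured as the squared coefficient of variation after scaling for depth, from which the share due to counting was taken off. It was higher in aged than in young oocytes for 7 of 10 genes, as it was for 73.8% of all 12145 features with enough counts. It was more than 1.5-fold higher for 5 genes, beside 43% of features. The median log2 ratio of spread was 0.51 for the 10 genes and 0.46 for all features. The 5 genes were Fto (1.16), Mettl14 (1.03), Wtap (0.88), Ythdf2 (0.81) and Alkbh5 (0.69). For 4 of them the direction was not stable. Without aged oocytes 41 to 48 the log2 ratio was -0.61 for Mettl14 and -1.11 for Wtap, without aged oocytes 9 to 16 it was -0.62 for Alkbh5, and after thinning it was -0.51 for Fto.

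Ythdf2 kept a wider spread in aged oocytes under each of the 12 other settings, with squared coefficients of variation of 0.0627 when young and 0.110 when aged. Within NSN oocytes alone these were 0.0125 and 0.0309. Wtap had the widest spread at either age, 0.0866 in young and 0.159 in aged oocytes, and Alkbh5 the narrowest, 0.0113 and 0.0182. Differences between runs took up 60.3% of the variance of log2 Wtap levels in aged NSN oocytes and 48.2% of that of Igf2bp2, but 0.474% of that of Ythdc1.

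**Figure D4:**
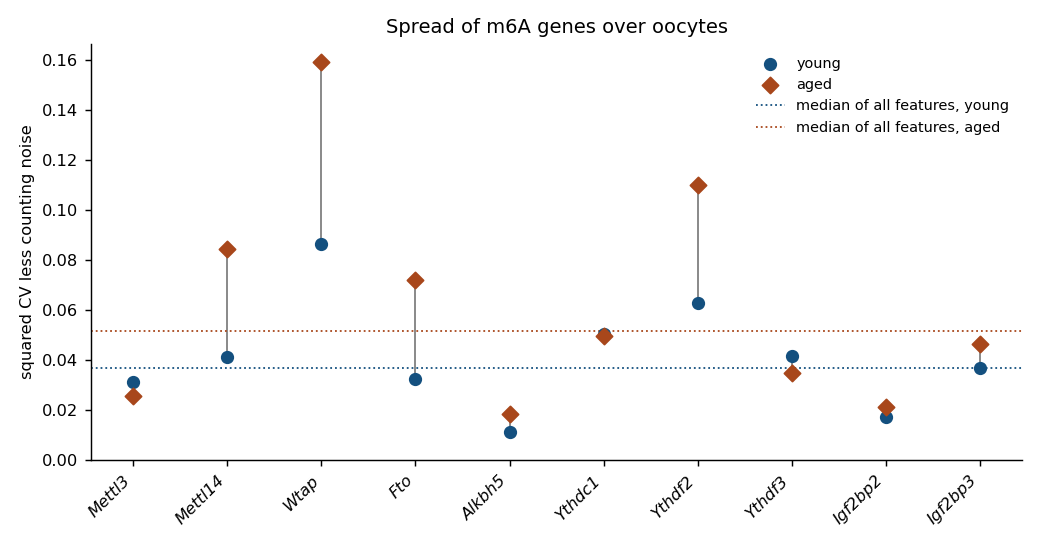
Spread over oocytes (squared coefficient of variation less counting noise, linear axis from 0) of each m6A gene in young (circles) and aged oocytes (diamonds), with dotted lines at the medians of all features, 0.0369 in young and 0.0515 in aged oocytes. Wtap has the widest spread at both ages, 0.0866 and 0.159.

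Some pairs of members varied together or in opposite directions from oocyte to oocyte. The pairs named are those with the strongest correlations among NSN oocytes once the mean of each run was removed. Other pairs were weaker, and many had both signs across runs. Mettl3 and Mettl14, for example, had -0.20 on that measure, below 0 in 4 of 6 runs. Correlations were taken of log2(CPM + 1) and are descriptions, since oocytes of a run share their run and age and the levels of one library share its total. Over all 87 oocytes Wtap and Igf2bp2 had a Pearson correlation of -0.70 and Wtap and Ythdf3 of 0.62. Over the 67 NSN oocytes, with the mean of each run removed, these were -0.58 and 0.70. Within runs of 7 to 14 NSN oocytes Wtap and Igf2bp2 were below 0 in 6 of 6, from -0.80 to -0.0004, and Wtap and Ythdf3 above 0 in 6 of 6. Name suffixes were not accounted for. In young NSN oocytes 1 to 7, suffix A oocytes had at most 397 CPM of Wtap and 275 CPM of Ythdf3. Those without a suffix had at least 460 and 312 CPM. In each other run the Wtap levels of the suffix groups overlapped. The part of the suffix in these correlations was not tested. The correlation of Wtap with the log2 total count of the NSN oocytes was 0.41, and with run means removed 0.30.

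Ythdc1 and Ythdf2, which stood apart in opposite directions between the configurations, had a correlation of -0.58 over all oocytes. Among NSN oocytes alone, with run means removed, it was -0.51, and it was below 0 in 6 of 6 runs. Mettl14 and Igf2bp2 had a correlation of -0.59 on the same measure, below 0 in 5 of 6 runs. Each member was also set against 11360 features over the 87 oocytes of both ages and configurations, and the highest correlation is given. The feature most like each member was Ptpn21 for Igf2bp2 (0.87), Hsph1 for Ythdf2 (0.86), Zfp655 for Ythdf3 (0.83) and Atxn1 for Igf2bp3 (0.76). For Wtap it was a feature without a gene name on chromosome 6 (0.78). Tpt1 was the most like Mettl14 (0.72), Gnb1 Alkbh5 (0.69), Bod1l Ythdc1 (0.69), Alg9 Mettl3 (0.68) and Tsc1 Fto (0.53).

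**Figure D5:**
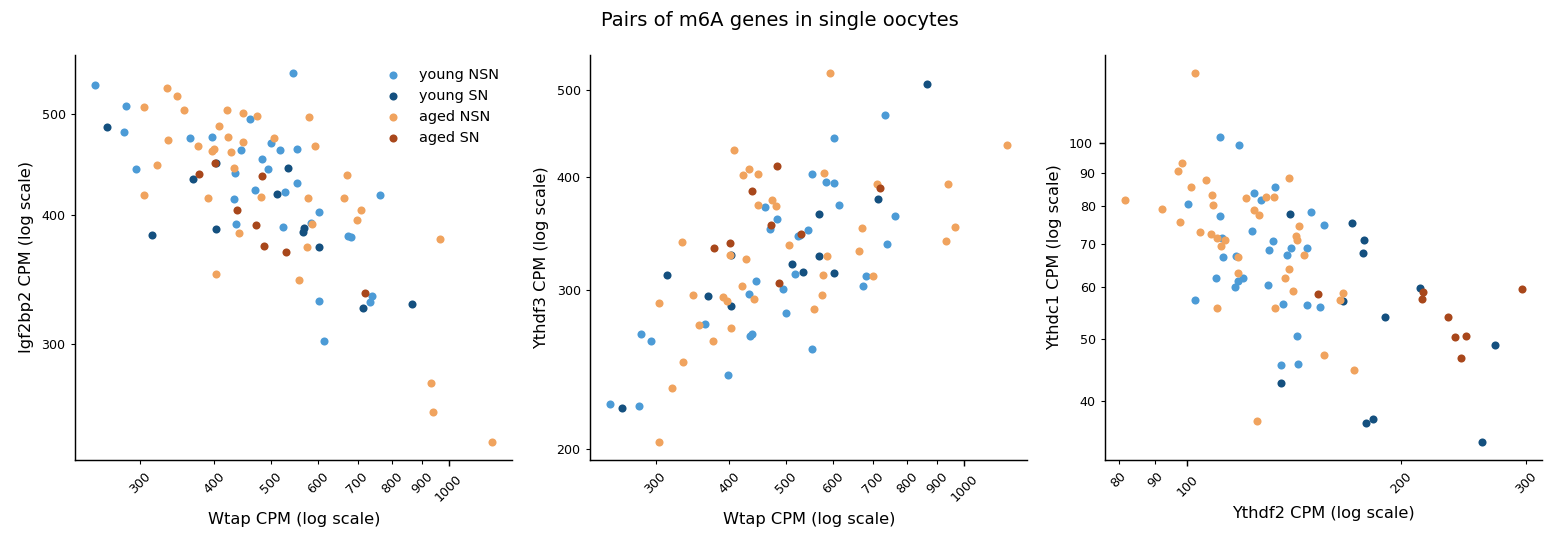
Levels of 3 pairs of m6A genes in the 87 oocytes (CPM, log scale on both axes), 1 point per oocyte coloured by group. Igf2bp2 is lower and Ythdf3 higher where Wtap is higher (correlations of -0.70 and 0.62), and Ythdc1 is lower where Ythdf2 is higher (-0.58).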

How the data were processed

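The deposited table held raw counts per assembled oocyte feature for 88 single GV oocytes. Per the study's methods, the authors trimmed single-cell reads with Trim Galore, aligned them with HiSat2 to GRCm38 and counted them over an oocyte transcript assembly. The counting strand is not given in the sources used here. Features were matched to genes by name or by span overlap (Jaccard index of at least 0.3) with GENCODE M21. No column was left unmapped. The aged oocyte 48A, with no configuration, was left out of the main comparisons.

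Counts were summed over oocytes, divided by the summed totals and compared as log2 ratios among features with at least 5 CPM over all oocytes and 3 counts in both groups. Intervals (95%) are exact Poisson or conditional binomial and cover counting error only. Spread used median-of-ratios scaling and features whose scaled counts averaged 10 or more. Near copies were sought with megablast (95% identity over 100 bases). TMM factors came from edgeR 4.0.16 in R 4.3.3, and the rest from Python 3.11.15 (pandas 2.3.3, scipy 1.17.1, numpy 2.4.6). The scripts were tested on simulated data. No p-value was computed, since oocytes cannot be traced to mice.

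All 10 members were named with their values. Other genes were named where they passed a log2 ratio of 0.32 in aged against young NSN oocytes or in SN against NSN oocytes of both ages, or had the highest or lowest ratio of a list. Members and lists were chosen with earlier results of these data known. Settings tried were other scalings, single-oocyte means and medians, thinning, name suffixes, other folds and minimum levels, and leaving out each run.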

Additional observations from a re-analysis of the deposited data

Results flagged for a closer look

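With 8 oocytes, the aged SN group was the one small enough for a check for oocytes far from the others, and 2 of the 10 genes had one. In independent oocytes chance alone would flag about 1 group in 20, and whether these oocytes were independent is not known. Wtap reached 722 CPM in aged SN oocyte 41, where the next highest oocyte stood at 530 CPM and the lowest at 377 CPM. Alkbh5 reached 1044 CPM in aged SN oocyte 15, where the next highest stood at 906 CPM and the lowest at 795 CPM. The total count of oocyte 15, by which its level is divided, differed from that in the study's supplementary list. Neither gene passed a log2 ratio of 0.32 in a comparison with the aged SN group.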

How the results depend on the processing

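Over the settings tried, 129 values of the group summaries stayed as reported and 26 moved. A count stayed when within 1.5 times and a median when within 0.1. Of single-gene values, 393 stayed, within the counting interval or for spread within 0.1, 363 moved, and 4 of those past their limit reversed. Counting all genes, 112 of 640 ratios had the other sign. The cause was not tested. With suffix A oocytes alone, the number of genes past the limit was 1 over all oocytes, 1 in NSN (Wtap) and 1 in SN oocytes for the ages, and 5 between SN and NSN aged oocytes, and the median ratio of SN over NSN in young oocytes was 0.12. For aged against young SN oocytes the number was 0 with size factors, 0 with the mean of single oocytes, 0 at a fold of 1.5 and 1 at a minimum of 10 CPM, which drops Fto. Between SN and NSN oocytes it was 1 in young oocytes after thinning, 0 in young and 1 in aged oocytes at a fold of 1.5, and the aged median was 0.092 with the median of single oocytes. Leaving out a run in turn gave 0 to 4 genes and a median of -0.060 to 0.14 in aged against young SN oocytes. It gave a median of -0.032 to 0.13 between SN and NSN aged oocytes. The median log2 ratio of spread was 0.83 with 88 oocytes, 0.29 after thinning and 0.065 to 1.08 without each run. Leaving out a run gave log2 ratios of spread up to 1.58 for Mettl14, 1.36 for Wtap and 1.04 for Alkbh5. The reversed values of spread were -0.51 for Fto after thinning, -0.62 for Alkbh5 without aged oocytes 9 to 16, and -0.61 for Mettl14 and -1.11 for Wtap without aged oocytes 41 to 48. TMM scaling shifted all ratios by at most 0.07. No paired analysis of the ages was possible because they share no oocyte numbers. SN and NSN oocytes were set side by side within runs, without a test. Depth limited Fto most, with 4 counts in one oocyte.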

Other observations

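The aged oocyte 48A, which had no configuration, was outside the range of the other 45 aged oocytes for 7 of the 10 genes at a total of 3588332 counts. Igf2bp3 (297 CPM) and Mettl3 (80.8 CPM) were above that range. Mettl14 (25.4 CPM), Alkbh5 (369 CPM), Ythdc1 (35.4 CPM), Ythdf3 (129 CPM) and Igf2bp2 (128 CPM) were below it. Wtap, Fto and Ythdf2 were within it.

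Among the aged oocytes with a configuration, 9A had the lowest level of 4 genes, Wtap at 304 CPM, Alkbh5 at 494 CPM, Ythdf3 at 204 CPM and Igf2bp3 at 109 CPM. Its total was 1167641 counts, and 976456 was the lowest total in the set. Among young oocytes, 33A had the lowest Mettl3 and the highest Ythdf2 and Igf2bp3.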
